A study of Mus musculus with 12 samples.

Results

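The 4 adult hemoglobin genes Hba-a1, Hba-a2, Hbb-bs and Hbb-bt and the erythroid heme gene Alas2 were followed in brain tissue of 12 mice. They were taken by name from the deposited expression tables, where they are 5 of 25749 genes, and each was found once in every table. All mice were B6 males aged 13 weeks, 4 in each of 3 groups. The groups were uninjured mice, mice with an injury, and injured mice that received antibodies against LFA1 and VLA4 continuously, called antibody-treated from here on. LFA1 and VLA4 are integrins with which white blood cells hold on to vessel walls, and the title of the series names the injury as cerebrovascular. The labels give no dose, no start of treatment and no control antibody for the injured group. Per the labels' protocols the animals were perfused with saline 20 days after injury, the tissue was frozen as a cube measuring 3 mm along each edge, and libraries were made with a stranded kit from 500 ng of total RNA each. Each mouse is a sample of its own according to the labels. That protocol speaks of injured tissue for every sample, and what was taken from uninjured mice is not stated, which bears on each comparison with them. Perfusion washes blood out of the vessels.

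Hemoglobin is a tetramer of 2 alpha and 2 beta globin chains, each holding a heme group that binds oxygen. Its mRNA is made by erythroblasts in the bone marrow and persists for a short time in young circulating red cells, the reticulocytes, so whole blood RNA is rich in it. Alas2 encodes the erythroid form of 5-aminolevulinate synthase, the enzyme that starts heme synthesis in red cell precursors, while the form used by other tissues is encoded by Alas1. Low levels of alpha and beta globin mRNA are also known from some neurons and glia.

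The alpha globin genes lie near each other on chromosome 11 of GRCm38 (mm10), the build named in the submitters' processing notes. Hba-a1 (ENSMUSG00000069919) spans chr11:32283511-32284465 and Hba-a2 (ENSMUSG00000069917) chr11:32296489-32297298, both on the plus strand with 3 exons. The adult beta globin genes lie on the minus strand of chromosome 7, Hbb-bs (ENSMUSG00000052305) at chr7:103826534-103828096 and Hbb-bt (ENSMUSG00000073940) at chr7:103812524-103813996. Alas2 (ENSMUSG00000025270) lies at chrX:150547375-150570638 on the plus strand with 14 exons, inside the bounds of Apex2, a DNA repair gene on the opposite strand. The copies within each globin pair are shown side by side because their likeness decides which reads can be assigned to 1 gene. In the GENCODE M21 transcripts the coding sequences of Hba-a1 and Hba-a2 differed at 1 of 429 bases and those of Hbb-bs and Hbb-bt at 1 of 444. The stretches around these bases follow, with the differing base in capitals and positions counted from the A of the start codon.
Hba-a1 coding bases 351 to 411: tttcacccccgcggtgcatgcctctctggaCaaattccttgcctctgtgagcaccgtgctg
Hba-a2 coding bases 351 to 411: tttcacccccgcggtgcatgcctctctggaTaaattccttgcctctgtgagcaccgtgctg
Hbb-bs coding bases 390 to 444: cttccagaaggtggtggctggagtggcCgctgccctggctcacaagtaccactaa
Hbb-bt coding bases 390 to 444: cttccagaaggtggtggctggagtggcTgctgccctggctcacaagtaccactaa
From the first to the second gene of each pair the changes were C381T in the alpha genes and C417T in the beta genes, and neither altered the amino acid. Of all stretches of 75 bases in the transcripts, 62.2% in Hba-a1 and 81.0% in Hba-a2 were also present in the other alpha gene, compared with 64.3% in Hbb-bs and 56.6% in Hbb-bt for the beta pair. Alas2 shared none with the other 4 genes. The read length is not given in the sources used here, and with stretches of 50 or 100 bases Hba-a2 was also the gene with the largest shared part.

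The promoters are shown because the control of the 5 genes by erythroid factors is well known. A link between promoters and the group differences was not tested. RefSeq (GRCm38.p6) gives the 250 bases before the start of each gene, written 5′ to 3′ along the gene's own strand. RefSeq places the start of each of the 5 genes inside the GENCODE bounds given above, so every window also covers the first bases of those bounds. Capitals mark 4 motifs searched on both strands: a site for GATA factors, which is spelled AGATAA or with T as its first letter, G as its last letter, or with both, the box that the erythroid factor KLF1 and its relatives bind, spelled CACCC, the TATA box, spelled TATAA, and the CCAAT box, spelled as its name.
Hba-a1 promoter, chr11:32283422-32283671, plus strand: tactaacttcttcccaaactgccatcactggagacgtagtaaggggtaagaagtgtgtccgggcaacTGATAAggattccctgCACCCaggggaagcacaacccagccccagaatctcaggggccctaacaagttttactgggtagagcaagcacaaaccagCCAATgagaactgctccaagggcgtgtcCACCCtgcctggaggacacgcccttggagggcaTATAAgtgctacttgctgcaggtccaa
Hbb-bs promoter, chr7:103827929-103828178, minus strand: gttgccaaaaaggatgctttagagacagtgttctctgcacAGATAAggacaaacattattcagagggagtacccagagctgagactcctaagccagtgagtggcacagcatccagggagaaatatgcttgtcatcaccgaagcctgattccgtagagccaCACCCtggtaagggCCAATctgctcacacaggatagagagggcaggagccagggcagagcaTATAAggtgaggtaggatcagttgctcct
Hbb-bt promoter, chr7:103813924-103814173, minus strand: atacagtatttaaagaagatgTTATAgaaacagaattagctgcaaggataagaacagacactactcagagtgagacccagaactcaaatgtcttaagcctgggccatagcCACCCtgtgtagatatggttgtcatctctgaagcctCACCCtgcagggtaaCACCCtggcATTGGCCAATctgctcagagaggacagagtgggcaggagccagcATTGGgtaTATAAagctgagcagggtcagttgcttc
Alas2 promoter, chrX:150547167-150547416, plus strand: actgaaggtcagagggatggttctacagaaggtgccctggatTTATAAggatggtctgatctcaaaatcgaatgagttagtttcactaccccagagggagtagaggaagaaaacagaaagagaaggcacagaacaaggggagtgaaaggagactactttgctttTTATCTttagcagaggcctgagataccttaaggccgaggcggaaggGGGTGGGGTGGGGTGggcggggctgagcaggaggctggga
The Hba-a2 promoter, at chr11:32296242-32296491, equalled that of Hba-a1 at all 247 bases compared after a shift of 3 bases, and is not repeated. The promoters of Hbb-bs and Hbb-bt were alike at only 51% of 249 bases, far less than their coding sequences. All 4 motifs were present in Hba-a1, Hba-a2 and Hbb-bs, whereas Hbb-bt held no match to the GATA letters and Alas2 none to the letters CCAAT. The KLF1 box occurred 2 times in each alpha promoter, 1 time in Hbb-bs and 3 times each in Hbb-bt and Alas2, where the 3 copies lie in a row on the opposite strand. The TATA letters of Alas2 lie in a palindrome that reads the same on both strands, and are counted on each, at -208 and -207 from the start. Each globin promoter held a match nearer the start, at -27 in Hba-a1, -30 in Hba-a2, -29 in Hbb-bs and -28 in Hbb-bt. Hbb-bt held a further match at -229. Among 32851 RefSeq promoters of the same length, 26.5% held a GATA site, 52% the KLF1 box, 22.8% the TATA box and 33.8% the CCAAT box, and 1.08% held all 4. These matches describe letters only.

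Exon reads per library ranged from 15159988 to 15781229 in uninjured mice, 15507462 to 16121577 in injured and 13330379 to 13917157 in antibody-treated mice. Mitochondrial reads made up 10.3% to 12.01%, 4.75% to 7.99% and 8.83% to 11.01% of these. Replicate libraries differed by at least 3.03 times the variance that counting gives, so none was a copy of another. All 14 markers of neurons, oligodendrocytes, astrocytes and microglia that were checked, such as Snap25 and Mbp, had reads in every group. Over the 14771 genes tested, the median log2 fold change was 0.03 between injured and uninjured mice and 0.01 in both comparisons with antibody-treated mice. Levels below are normalised CPM (exon reads scaled to library size with TMM factors) unless TPM is named, with means ± SD over 4 libraries.

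The comparisons with the antibody-treated group asked whether hemoglobin transcripts differed in mice whose leukocyte integrins were blocked. All 5 genes were higher in antibody-treated than in uninjured mice and than in injured mice, by 3.90-fold to 5.49-fold. Against uninjured mice 4 of 4 globin genes passed the edgeR quasi-likelihood test in the higher direction (Benjamini-Hochberg adjusted p under 0.05), where 6.3% of all genes tested did. Against injured mice 4 of 4 passed, where 10.9% of all genes did. Alas2 also passed in both comparisons, but it is left out of these counts because it entered the test only through the antibody-treated group. The shares of all genes that passed and were at least 2-fold higher were 2.13% and 1.21%. In 4 of 4 globin genes all antibody-treated libraries lay above those of both other groups, where 9.01% of all genes were higher without overlap against uninjured and 10.6% against injured mice. Both comparisons use the same antibody-treated libraries. In bulk tissue, more cells that carry these transcripts and more RNA per cell cannot be told apart.

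Hba-a1, an alpha chain gene, had 5.18, 9.58, 10 and 9.26 CPM in uninjured replicates 1 to 4, 10.3, 13.6, 10.8 and 7.99 in injured and 40.98, 41.5, 31.6 and 56.7 in antibody-treated mice. The lowest antibody-treated library lay above the highest of both other groups, which overlapped each other. The difference from uninjured mice was 5.01-fold (95% limits 3.62 to 6.96, edgeR adjusted p = 1.529e-05) and that from injured mice 4.00-fold (2.91 to 5.50, edgeR adjusted p = 6.208e-05). Hba-a2, the other alpha chain gene, had 13.2, 15.1, 17.0 and 13.6 CPM in uninjured mice, 17.2, 14.5, 14.4 and 19.4 in injured and 66.9, 55.9, 44.5 and 88.5 in antibody-treated mice. Again the antibody-treated libraries stood alone and the other groups overlapped. Hba-a2 was 4.34-fold higher than in uninjured mice (95% limits 3.30 to 5.72, edgeR adjusted p = 7.944e-06) and 3.90-fold higher than in injured mice (2.98 to 5.12, edgeR adjusted p = 1.969e-05). The alpha genes thus rose by similar amounts, and replicate 4 was the highest and replicate 3 the lowest antibody-treated library in both. With a trend of GC content and length removed from each library, the Hba-a2 difference from uninjured mice was 1.52 on the log2 scale in place of 2.12, and it still passed the test.

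Hbb-bs, the beta chain gene with more reads, had 13.3, 16.1, 17.3 and 14.9 CPM in uninjured mice, 15.2, 19.6, 17.1 and 18.4 in injured and 81.2, 76.1, 57.2 and 102 in antibody-treated mice. No antibody-treated library overlapped the other groups. Hbb-bs was 5.12-fold higher than in uninjured mice (95% limits 4.07 to 6.45, edgeR adjusted p = 4.125e-07) and 4.49-fold higher than in injured mice (3.58 to 5.64, edgeR adjusted p = 1.39e-06). Hbb-bt, the other adult beta chain gene, had 3.16, 3.45, 3.96 and 3.62 CPM in uninjured mice, 2.61, 3.98, 3.13 and 2.07 in injured and 15.0, 12.2, 10.2 and 22.4 in antibody-treated mice. Its lowest antibody-treated library was likewise above every other library. The differences were 4.20-fold from uninjured mice (95% limits 2.94 to 5.99, edgeR adjusted p = 9.567e-05) and 5.05-fold from injured mice (3.52 to 7.25, edgeR adjusted p = 5.056e-05). Replicate 4 was again the highest and replicate 3 the lowest library for both beta genes.

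Alas2, the first enzyme of erythroid heme synthesis, was far less abundant, with 6, 5, 10 and 3 exon reads in uninjured mice, 4, 8, 12 and 13 in injured and 31, 31, 24 and 37 in antibody-treated libraries. These correspond to 0.403, 0.326, 0.671 and 0.201 CPM, to 0.255, 0.498, 0.723 and 0.769 CPM and to 2.26, 2.21, 1.71 and 2.78 CPM. The antibody-treated libraries did not overlap the others, which overlapped each other widely. Alas2 was 5.49-fold higher than in uninjured mice (95% limits 3.36 to 8.98, edgeR adjusted p = 0.0003214) and 3.91-fold higher than in injured mice (2.49 to 6.14, edgeR adjusted p = 0.0009099). The 4 globin genes, unlike Alas2, passed the filter on low counts without any 1 group. The size of its difference depended on the scale: on log2(TPM + 1) it was 1.31 and 1.07, and with reads that span exon junctions alone it was 2.70 and 3.01 on the log2 scale, against 2.46 and 1.97 from all exon reads. All of these passed their tests.

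**Figure D1:**
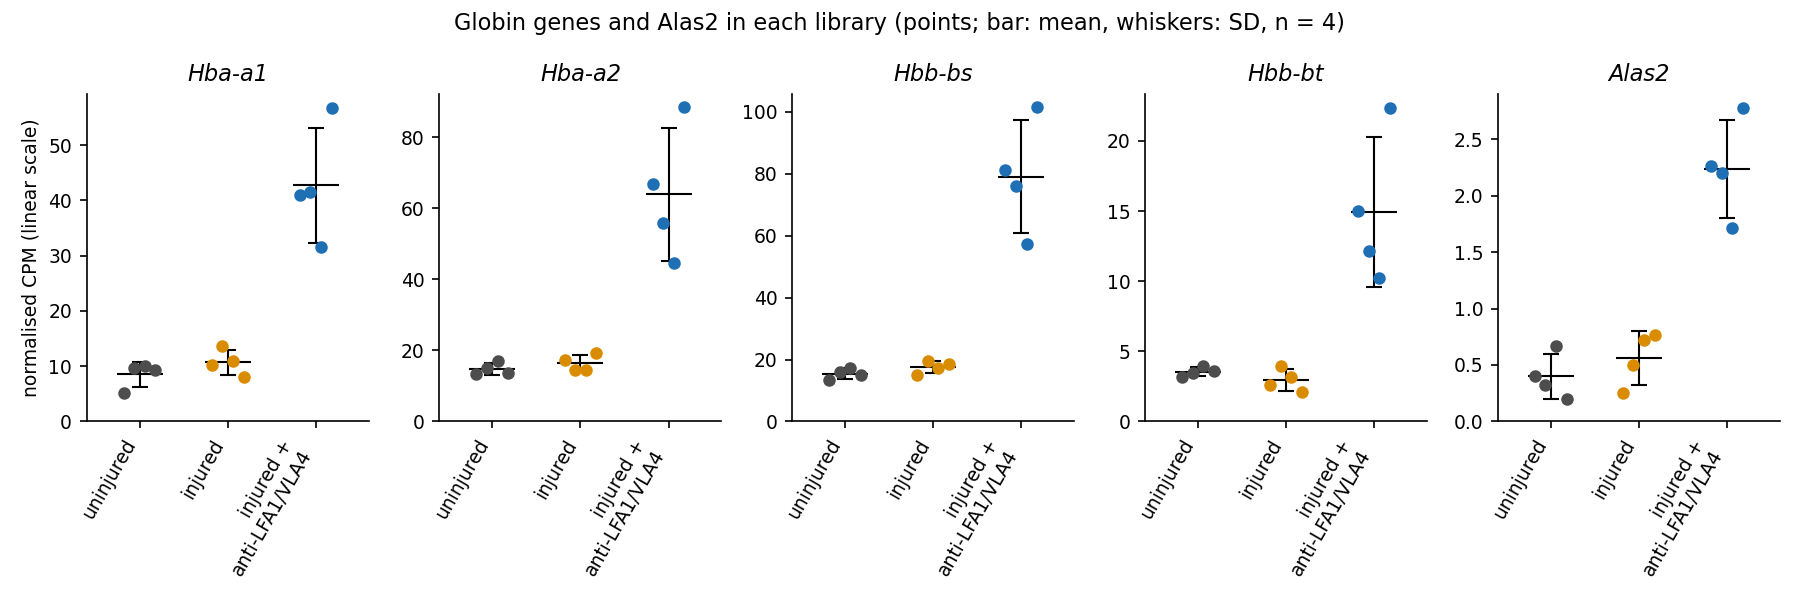
Normalised CPM (vertical axis, linear from 0, a scale of its own for each gene) of the 4 globin genes and Alas2 in the 12 libraries. Points are libraries, the horizontal bar is the mean and the whiskers are the SD of 4 libraries. In each gene the 4 antibody-treated libraries sit above all 8 others, for example 57.2 to 102 CPM against 13.3 to 19.6 CPM for Hbb-bs.

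The comparison of injured with uninjured mice asked whether injury alone left a difference in these transcripts at day 20. By edgeR's quasi-likelihood test 0 of 5 genes passed in either direction, where 11.9% of all genes tested were higher and 11% were lower. At an unadjusted p under 0.05 it was also 0 of 5, where 39.5% of all genes passed, and DESeq2's Wald test called 0 of 5 too. The log2 fold changes were 0.33 (95% limits -0.17 to 0.82) for Hba-a1, 0.15 (-0.25 to 0.56) for Hba-a2 and 0.19 (-0.15 to 0.53) for Hbb-bs. For Hbb-bt the value was -0.27 (-0.86 to 0.32) and for Alas2 0.49 (-0.38 to 1.36). In this model, with its TMM scaling, the limits exclude a rise of more than 1.76-fold for each globin gene, and of more than 2.57-fold for Alas2, whose read numbers were small. They do not cover the choice of scaling. On TPM, which is divided by a different total, Hbb-bs passed the test in limma (log2 fold change 0.35 on log2(TPM + 0.1), adjusted p = 0.0378) while the median of all genes moved to 0.18 on that scale.

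Near-identical copies share reads, so the genes were also compared by reads that match 1 place only. Over all libraries 33.7% of the Hba-a1 reads, 15.9% of the Hba-a2 reads, 52.1% of the Hbb-bs reads and 57.5% of the Hbb-bt reads were unique, and all Alas2 reads were. Hba-a2, the gene with the largest shared part of its transcript, had the lowest unique share. In unique reads Hba-a2 had 27, 37, 42 and 32 in uninjured mice, 33, 48, 42 and 57 in injured and 136, 130, 100 and 181 in antibody-treated libraries, which is still a complete separation of the last group. Hbb-bs had 103, 113, 137 and 124 unique reads in uninjured mice, 116, 143, 121 and 132 in injured and 590, 604, 430 and 725 in antibody-treated libraries, again without overlap. In tests on unique reads the log2 differences from uninjured mice were 2.28 for Hba-a1, 2.11 for Hba-a2, 2.43 for Hbb-bs and 2.27 for Hbb-bt, close to the values from all exon reads. The raw numbers of unique reads had the opposite order for the alpha genes. Hba-a2 had more total reads than Hba-a1 in all 12 libraries, but fewer unique reads in 11 of 12. However, less of the Hba-a2 transcript can give a unique read. Of its stretches of 75 bases, 91 were found in no other gene, compared with 236 in Hba-a1. The unique numbers were not scaled to this part and so do not rank the alpha genes. Hbb-bs exceeded Hbb-bt in all 12 libraries by both counts.

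**Figure D2:**
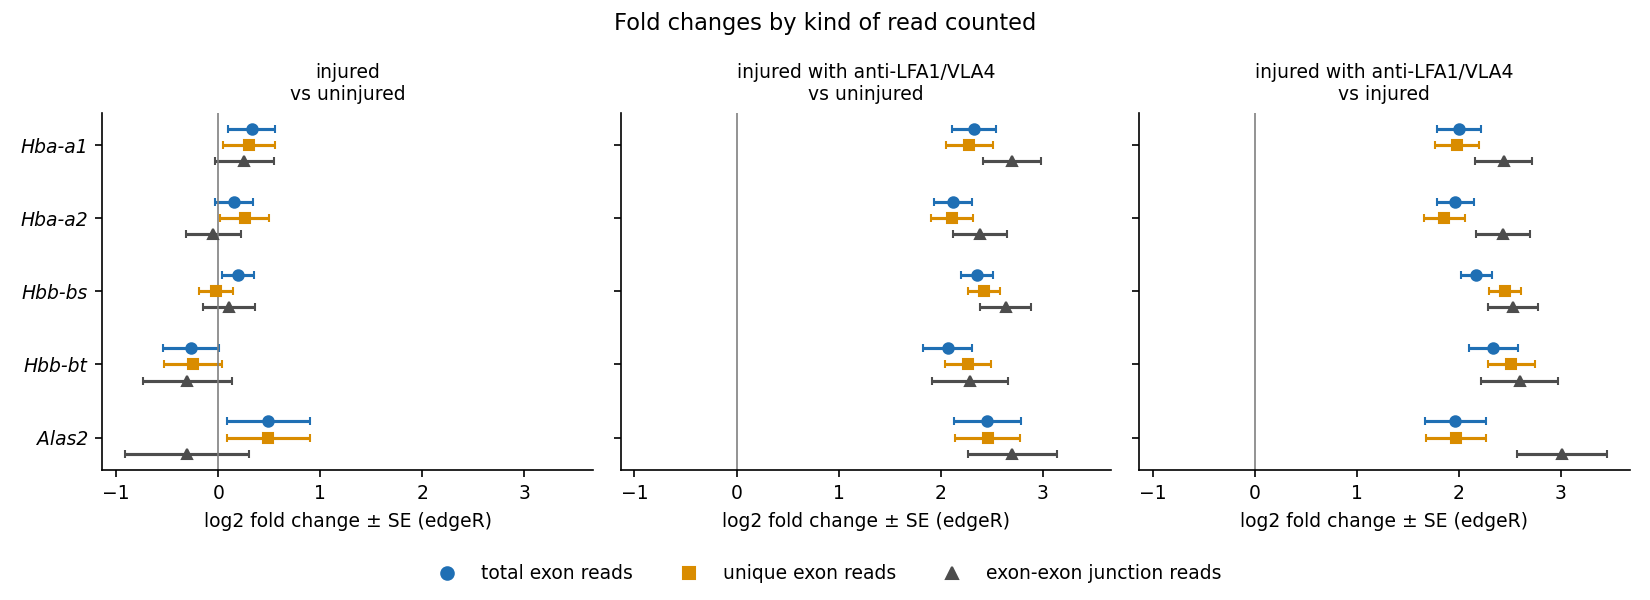
Log2 fold change (horizontal axis) with its SE from edgeR for each gene, in 3 comparisons and for 3 kinds of read: all exon reads, unique exon reads and reads spanning exon junctions. In the comparisons with antibody-treated mice every value lies between 1.86 and 3.01, and between injured and uninjured mice the values lie on both sides of 0.

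Reads that span an exon junction made up 45.3% to 50.9% of globin exon reads in uninjured mice, 44.8% to 49.4% in injured and 46.0% to 51.2% in antibody-treated libraries, so the groups overlapped in this share. For Alas2 there were 13 junction reads in uninjured mice, 12 in injured and 69 in antibody-treated mice. Only 1 intron read was counted for Alas2 in all libraries. Strand use in the authors' counting is not given in the sources used here, so reads from Apex2 on the other strand could have entered. Apex2 had 3.35 ± 0.19 CPM in uninjured mice, 3.80 ± 0.22 in injured and 4.82 ± 0.50 in antibody-treated animals (SD, n = 4) and was higher in the last group than in uninjured mice by 0.52 on the log2 scale (edgeR adjusted p = 0.00958). Junction reads of Apex2 did not move the same way, with 45 in uninjured mice, 54 in injured and 35 in antibody-treated mice, and its part in the Alas2 counts was not tested.

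Levels were compared between the genes in TPM, which divides by exon length. In uninjured mice Hba-a2 had 63.4 ± 5.44 TPM, Hbb-bs 51.6 ± 4.64, Hba-a1 29.1 ± 7.47, Hbb-bt 12.1 ± 1.01 and Alas2 0.465 ± 0.217 TPM (SD, n = 4). The order was the same in injured mice, at 79.5 ± 15.5, 65.9 ± 7.32, 40.5 ± 6.62, 11.1 ± 2.50 and 0.745 ± 0.340 TPM. It was also the same in antibody-treated mice, at 274.7 ± 66.5, 264.3 ± 47.6, 145.8 ± 28.4, 50.5 ± 15.5 and 2.63 ± 0.379 TPM. The libraries of Hba-a2 and Hbb-bs overlapped in the injured and the antibody-treated group, so these neighbours did not differ beyond their spread there, and all other neighbours were apart in every group. The TPM of Hba-a2 and Hba-a1 includes shared reads, and their order was not tested in unique reads scaled to each transcript's own part. Across the 12 libraries the levels of any pair of the 5 genes had a Pearson r of 0.868 to 0.987 on the log2 scale, a description of libraries that fall into the antibody-treated group and the rest.

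The rise in the antibody-treated group was seen in the summed reads, while most proportions between the genes overlapped between groups. The 4 globin genes together held 519 to 719 exon reads in uninjured mice, 710 to 831 in injured and 2012 to 3586 in antibody-treated libraries. The ratio of alpha to beta globin, in summed TPM, was 1.35, 1.49, 1.50 and 1.45 in uninjured mice, 1.83, 1.38, 1.46 and 1.61 in injured and 1.33, 1.29, 1.33 and 1.38 in antibody-treated libraries. The ranges of the groups overlapped, and injured replicate 1 had the highest ratio. Hbb-bs gave 80.4% to 82.3% of the beta globin reads in uninjured mice, 83.1% to 89.9% in injured and 82.0% to 86.2% in antibody-treated libraries. The injured libraries lay above the uninjured ones in this share, and in unique reads, at 81.7% to 85.7% against 80.1% to 81.7%, these ranges met. Alas2 had 4.87 to 13.9 reads for every 1000 globin reads in uninjured mice, 5.63 to 16.1 in injured and 10.3 to 11.9 in antibody-treated libraries. The last range lay within both others.

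Intron reads of the globin genes were more numerous in antibody-treated mice. They numbered 2, 1, 4 and 1 in uninjured mice, 4, 0, 1 and 0 in injured and 17, 27, 17 and 52 in antibody-treated libraries. Per 1000 globin exon reads this was 3.16 over all uninjured, 1.61 over all injured and 10.3 over all antibody-treated libraries, and by library the lowest antibody-treated value, 6.07, was above the highest of the others, 5.63. In reads that match 1 place only, the rates overlapped. Such intron reads numbered 1, 1, 3 and 1 in uninjured mice, 4, 0, 1 and 0 in injured and 11, 19, 9 and 34 in antibody-treated libraries. Per 1000 unique exon reads this was 6.65, 4.85 and 17.5 over the 3 groups, but injured replicate 1, with 18.02, lay above antibody-treated replicates 1 and 3, with 10.6 and 12. In antibody-treated replicates 1 to 4 the intron reads, shared ones included, came from Hba-a1 (3, 11, 4 and 17 reads), Hba-a2 (7, 8, 8 and 22) and Hbb-bs (7, 8, 5 and 13), while Hbb-bt had 0 in that group. Over all genes the intron share of gene reads was 5.76% to 6.95% in uninjured mice, 6.57% to 7.04% in injured and 5.81% to 7.50% in antibody-treated libraries, ranges that overlapped.

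**Figure D3:**
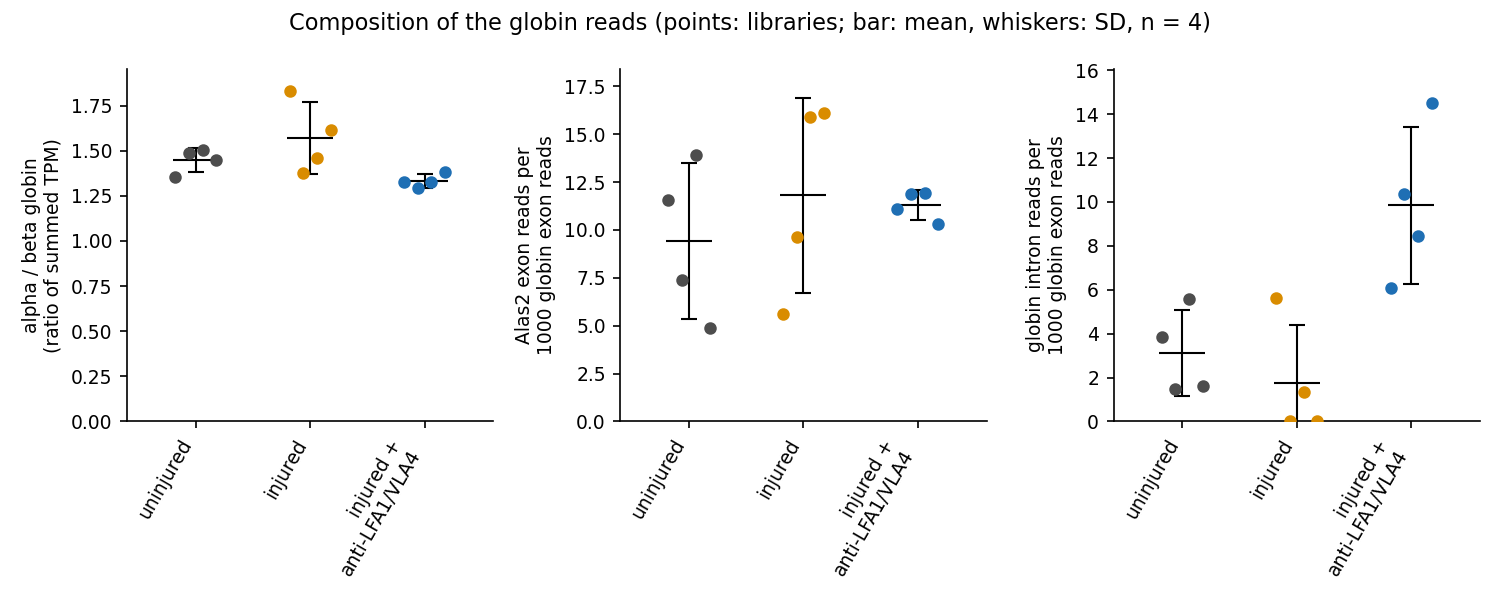
Composition of the globin reads by library: the ratio of summed alpha to summed beta globin TPM, Alas2 exon reads per 1000 globin exon reads, and globin intron reads per 1000 globin exon reads (vertical axes, linear from 0). Points are libraries, bars are means and whiskers SD of 4 libraries. The first 2 quantities overlap between the groups, and the third is 6.07 to 14.5 in antibody-treated libraries against at most 5.63 elsewhere, a separation that was not present in unique reads.

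The embryonic and theta globin genes gave no comparable signal. Hba-x, Hbb-bh1 and Hbb-bh2, embryonic or fetal globin genes, had 0 reads in all 12 libraries, and 0 reads allow up to 3 per gene by counting error alone. Hbb-y had 4 reads in all, and the theta genes Hbq1a and Hbq1b had 45 and 32 reads over the 12 libraries. None passed the filter on low counts. Hbb-bh0 and Hbb-bh3 were not found by name among the 25749 genes and could not be analysed.

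None of the other genes of heme synthesis was higher in antibody-treated mice by edgeR's test. Of 12 listed, from Alas1 to the ferrochelatase gene Fech, all 12 were tested, and against uninjured mice 0 were higher and 1 was lower in antibody-treated mice, Fech with a log2 fold change of -0.23 (edgeR adjusted p = 0.0283). Against injured mice 0 were higher and 1 was lower, Ppox, the protoporphyrinogen oxidase gene, with -0.32 (edgeR adjusted p = 0.0315). Between injured and uninjured mice 1 was higher, also Ppox, with 0.47 (edgeR adjusted p = 0.00717). The median log2 fold changes of the list were 0.06, -0.07 and 0.14 in these 3 comparisons. Alas1, the form used by most tissues, had 53.0 ± 3.59 CPM in uninjured mice, 58.7 ± 2.91 in injured and 53.3 ± 2.53 in antibody-treated mice (SD, n = 4).

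Genes of the red cell membrane and of red cell metabolism were mixed. Of 19 listed, 18 were in the tables and 9 were tested, and many of these are also expressed in brain. Against uninjured mice 2 were higher and 1 was lower in antibody-treated mice: the water channel gene Aqp1 (log2 fold change 0.55, edgeR adjusted p = 0.0061), the glycophorin C gene Gypc (0.50, edgeR adjusted p = 0.046) and the blood group gene Ermap (-0.94, edgeR adjusted p = 0.0463). Against injured mice 3 were higher and 2 were lower, with Aqp1 at 0.74, Gypc at 0.66, the ankyrin gene Ank1 at -0.47 and the spectrin gene Sptb at -0.44. Between injured and uninjured mice 0 were higher and 1 was lower, Bnip3l at -0.20 (edgeR adjusted p = 0.0393). The median log2 fold changes were 0.02, 0.16 and -0.06, and the summed level of the list was 628.9 to 670.1 CPM in uninjured mice, 626.1 to 662.7 in injured and 605.4 to 636.4 in antibody-treated libraries. Genes that are largely specific to red cells had few reads. Slc4a1, the band 3 anion exchanger, had 1 read in all uninjured, 1 in all injured and 15 in all antibody-treated libraries, Epb42 had 1, 3 and 1, and Kel had 0 in all.

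The list of erythroblast regulators was fixed because nucleated precursors also carry globin mRNA. Of 14 genes, 6 were tested, and against uninjured mice 1 was higher and 2 were lower in antibody-treated mice: Tal1 (log2 fold change 0.76, edgeR adjusted p = 0.0128), the transferrin receptor gene Tfrc (-0.65, edgeR adjusted p = 0.00215) and Zfpm1 (-0.27, edgeR adjusted p = 0.0315). Against injured mice 0 were higher and 1 was lower, Zfpm1 at -0.59. Between injured and uninjured mice 2 were higher, Tal1 at 0.78 and Zfpm1 at 0.31, and 1 was lower, Tfrc at -0.80. The medians were -0.03, 0.04 and 0.14, and the summed level was 267.2 to 291.1 CPM in uninjured mice, 212.5 to 244.2 in injured and 221.9 to 240.0 in antibody-treated libraries. Tfrc and Bcl11a made up most of this sum. On average Tfrc had 144.4, 82.7 and 91.7 CPM in the 3 groups and Bcl11a 79.4, 77.7 and 82.6 CPM. The defining genes were at or near 0: Gata1, the master regulator of the lineage, had 0, 0 and 2 reads in the 3 groups, Klf1 had 4, 13 and 4, Hemgn 1, 2 and 1, and Gfi1b 0, 1 and 0.

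Markers of other tissues moved in the same libraries as the globin genes, and their part in the globin result was not tested. Of 12 skeletal muscle genes, 11 were higher and 0 lower in antibody-treated mice against each other group, with median log2 fold changes of 4.41 against uninjured and 3.79 against injured mice. The fast myosin gene Myh1 rose by 4.80 and 4.87, the calcium pump gene Atp2a1 by 4.46 and 3.50 and the troponin gene Tnnt3 by 5.82 and 6.30 on the log2 scale, and the creatine kinase gene Ckm had 3, 1 and 715 reads in the 3 groups. Pvalb passed in neither comparison, with 61.7, 78.0 and 69.3 CPM on average in the 3 groups. It made up most of the list's mean sum in uninjured and injured mice, 76.2 and 95.8 CPM, but not in antibody-treated mice, 221.4 CPM. The summed muscle level, Pvalb included, was 62.8 to 91.3 CPM in uninjured mice, 78.1 to 106.4 in injured and 227.9, 210.5, 184.3 and 263.0 in antibody-treated replicates 1 to 4. Summed globin in those replicates was 204, 186, 143 and 269 CPM. The order of the 4 libraries was the same for both, as it was for the neutrophil, B and plasma cell, platelet, heme synthesis and hemoglobin clearance lists. It differed for the red cell, erythroblast, bone, endothelial, brain and other globin lists. Single genes held most of some sums. In uninjured mice Ighm averaged 37.6 of 44.5 CPM in the B and plasma cell list and Fth1 2418 of 3702 CPM in the clearance list. Between injured and uninjured mice 1 muscle gene was higher, Atp2a1 at 0.96.

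Some genes of the blood and marrow cell lists were also higher. Of 8 tested neutrophil genes among 16, 7 were higher against uninjured and 6 against injured mice, with 0 lower, and medians of 2.57 and 1.99. Genes with few reads elsewhere could enter the test through the antibody-treated group alone, for example Ltf with 5, 9 and 52 reads in the 3 groups. Other named genes also had few reads elsewhere: Ngp with 14, 17 and 83, Jchain with 17, 18 and 204, Ibsp with 11, 10 and 61 and Ckm with 3, 1 and 715. How many did so was not determined for any list, the muscle list included. Such genes can raise these counts and medians. The calprotectin genes S100a8 and S100a9 rose by 3.46 and 3.33 against uninjured and by 3.05 and 2.94 against injured mice, the granule gene Ngp by 2.65 and 2.50, and the lipocalin gene Lcn2 by 2.49 and 1.48. Summed, the list had 12.3 to 15.9 CPM in uninjured mice, 22.3 to 25.1 in injured and 43.8 to 55.6 in antibody-treated libraries, Ly6g had 0 reads in all, and 2 genes, Lcn2 and Csf3r, were also higher in injured than in uninjured mice. Of 4 tested B and plasma cell genes among 13, 2 were higher in both comparisons, the immunoglobulin light chain gene Igkc (6.15 and 5.71) and the J chain gene Jchain (3.67 and 3.71). The other tested genes of that list, Ebf1 (0.13 and 0.14) and Ighm (-0.03 and 0.04), passed in neither comparison. The list medians of 1.90 and 1.93 lie between these and the higher genes, and no tested gene was near them. Summed, the list had 42.3 to 46.3 CPM in uninjured mice, 40.6 to 44.7 in injured and 66.7 to 94.7 in antibody-treated libraries. Of 12 tested bone and cartilage genes among 13, 6 were higher against uninjured and 5 against injured mice with 0 lower, including Mmp13 (3.87 and 2.94) and the bone sialoprotein gene Ibsp (2.54 and 2.79). Bglap, the osteocalcin gene, had 0, 22 and 99 reads in the 3 groups. The bone medians were 0.32 and 0.28, the first also with Bglap at its lower bound of 3 reads over the uninjured group, and the summed level was 35.4 to 39.3, 37.3 to 42.6 and 46.4 to 50.8 CPM in the 3 groups.

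Of 4 tested platelet genes among 11, 1 was higher against uninjured mice, the platelet factor gene Pf4 (log2 fold change 1.28, edgeR adjusted p = 0.00766), and 0 passed against injured mice. The medians were 0.32 and 0.59 in these comparisons, and -0.06 between injured and uninjured mice. Summed platelet levels overlapped, at 4.10 to 8.66 CPM in uninjured mice, 4.85 to 5.98 in injured and 4.56 to 10.96 in antibody-treated libraries, and Gp1ba had 0 reads. Of 13 brain endothelial genes, all tested, 1 was higher and 1 lower against uninjured mice, Cldn5 at 0.62 and Slco1a4 at -0.48, and 0 passed against injured mice, with medians of -0.14 and 0.05. The summed endothelial level was 437.3 to 447.2 CPM in uninjured mice, 409.9 to 423.4 in injured and 423.8 to 448.0 in antibody-treated libraries.

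**Figure D4:**
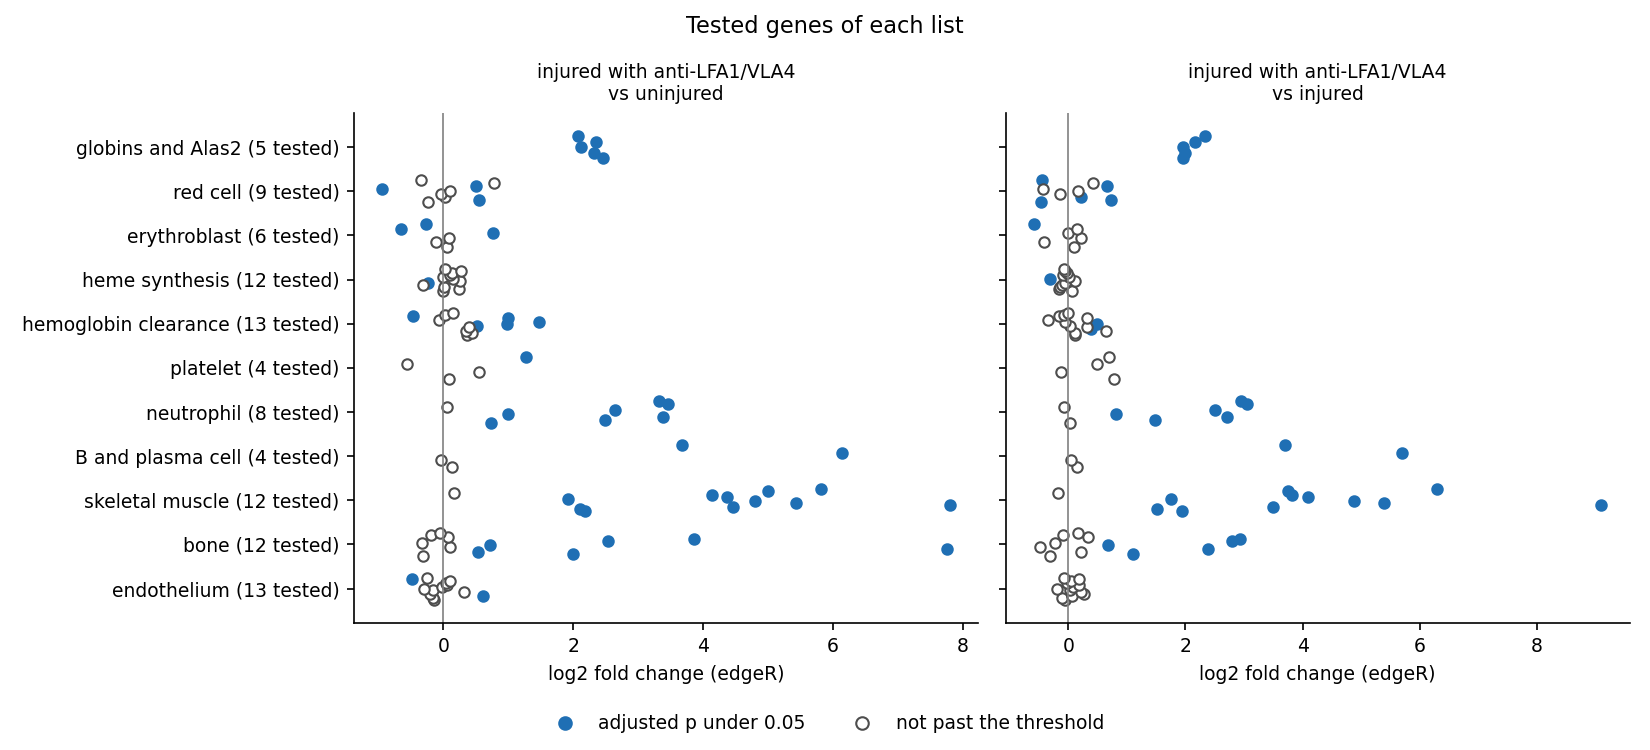
Log2 fold change (horizontal axis, edgeR) of each tested gene of 11 lists, in antibody-treated against uninjured mice and against injured mice. Each point is a gene, filled where the adjusted p is under 0.05. The 5 globin and Alas2 points lie between 1.97 and 2.46, while heme synthesis, endothelial and most red cell and erythroblast genes lie near 0 and most muscle and neutrophil genes lie to the right.

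Genes that take up hemoglobin and recycle its heme and iron were partly higher. Of 15 listed and 13 tested, 4 were higher and 0 lower in injured than in uninjured mice, 5 were higher and 1 was lower in antibody-treated than in uninjured mice, and 2 were higher and 0 lower in antibody-treated than in injured mice. Medians were 0.24, 0.39 and 0.11. Hmox1, the heme oxygenase that opens the heme ring, had 4.92 CPM in uninjured mice, 6.93 in injured and 9.70 in antibody-treated mice on average, and its log2 fold changes of 0.50, 0.98 and 0.48 in these comparisons all passed (edgeR adjusted p = 0.0318, 0.000799 and 0.0267). Slc11a1, a metal transporter of phagocytes, rose by 0.68 with injury and by 1.0 in antibody-treated against uninjured mice, and the ferritin light chain gene Ftl1 rose by 0.50 with injury. The ferroxidase gene Cp was higher in antibody-treated mice by 0.41 against uninjured and 0.38 against injured mice. Slc40a1, which encodes the iron exporter ferroportin, was the lower gene, at -0.47 against uninjured mice. Injured mice had higher Hmox1 without a detected difference in globin transcripts, and antibody-treated mice had higher levels of both.

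Among 14026 other genes with a mean of at least 1 CPM over the 12 libraries, the 6 whose log2 level was most like the summed globin level over the 12 libraries were Acta1 (Pearson r 0.995), Igkc (0.985), Pmch (0.984), Ifit1 (0.983), Igkv17-121 (0.979) and Tnnc2 (0.978). Acta1 encodes skeletal muscle actin and had 8.94, 10.6 and 40.6 CPM in the 3 groups. Tnnc2 encodes a fast muscle troponin, Igkc and Igkv17-121 are immunoglobulin light chain genes, Pmch encodes a hypothalamic neuropeptide, and Ifit1 is induced by interferon. For Alas2 they were Itgbl1 (0.953), C1s1 (0.952), Tcim (0.951), Mylpf (0.950), Anxa1 (0.949) and Myl1 (0.947). The libraries share the split between the antibody-treated group and the rest, so these values describe that split and carry no test.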

How the data were processed

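The submitters' processing notes list Trimmomatic 0.39, CASAVA 1.8.2 and FastQC 0.11.8, with GRCm38 as the build. How reads were aligned and counted, and whether strand was used, is not given in the sources used here. For each gene the deposited tables hold, per the file headers, a count of reads that touch exons, introns or exon junctions, once for all reads and once for unique ones. They also hold the authors' TPM and, per the file headers, RPKM scaled to exon length and mapped reads, which was not used. The tests took the deposited count of total exon reads, which includes reads that match several places, in 1 edgeR 4.0.16 quasi-likelihood model (R 4.3.3) that held the 12 libraries and only a group term. TMM factors scaled the libraries, filterByExpr by group left 14771 genes, and p-values were two-sided and adjusted by Benjamini-Hochberg over all of them at a threshold of 0.05. Limits are 95% limits of the fitted difference. The code was tested on simulated counts.

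The genes described and the 12 other lists were chosen with earlier results of these data known. From each list at most 4 genes per comparison were named, those of smallest p among genes that passed the test and reached 1 CPM on average in a group, along with defining genes that held almost no reads. Some genes outside this rule were named too, such as Pvalb, Ighm and Ebf1, which did not pass the test. All 25749 gene identifiers matched GENCODE M21 by start and end. The numbers of the replicates were not taken as a pairing. Of 12 pairs of libraries with the same number, 2 had deviations from the group means correlated above 0.1. The median correlation was -0.0166 for these pairs and -0.00725 for pairs with different numbers. This check cannot show whether libraries with the same number shared a batch. Alternatives were unique reads, the deposited TPM on a log2 scale with limma 3.58.1 (pseudocounts 0.1 and 1), other scalings and filters, the Wald test of DESeq2 1.42.0, voom, a model of only 2 groups, a robust spread, a replicate block, GC and length trends removed with mgcv 1.9.3, and each library left out. Junction reads alone, and the highest and lowest antibody-treated libraries left out together, were added after seeing the data. Limits cover the spread between these mice, and the floor of 3 reads covers counting error only. Values of some single genes of the lists are not reported here.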

Additional observations from a re-analysis of the deposited data

Results flagged for a closer look

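In uninjured replicate 1, Hba-a1 had 5.18 CPM, while the other 3 uninjured libraries had 9.26 to 10 CPM. The gap between it and the next library was 0.846 of the range of the group, beyond the critical value for 4 samples. It was 1 such value among 27 groups of 4 values examined, and chance alone gives about 1 in 20. The same library also had the lowest summed globin, 34.9 CPM against 41.3 to 48.3 CPM in the other uninjured libraries. Without uninjured replicate 1, the 4 globin genes still passed the test in both comparisons with antibody-treated mice, and so did Alas2.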

How the results depend on the processing

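For each of the 4 globin genes, the higher level in antibody-treated mice kept its direction and passed the test against both other groups in all 28 alternatives. Alas2 did so too, but under the main filter it entered the test only through the antibody-treated group, so it is not counted here. With each library left out in turn, the 4 globin genes were called in both comparisons. The adjusted p of any of the 5 genes reached at most 0.00366 against uninjured mice (Hbb-bt, junction reads) and 0.00572 against injured mice (Alas2, replicate block). Without antibody-treated replicates 3 and 4, the lowest and the highest globin libraries, the log2 differences were 1.93 to 2.46 against uninjured and 1.93 to 2.22 against injured mice. Between injured and uninjured mice, Hbb-bs was -0.0208 with unique reads, 0.35 on log2(TPM + 0.1) and 0.34 on log2(TPM + 1), and both TPM settings called 1 gene where the count test called 0. Hba-a2 was -0.13 with GC and length trends removed and -0.050 with junction reads, and Alas2 was -0.31 with junction reads. Alas2 had no value there with only the compared groups, because it failed the filter. The causes were not tested.

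With the replicate block, every globin gene was called higher in antibody-treated mice against both other groups. Of the 14771 genes tested, 682 were then higher against uninjured and 1235 against injured mice. Alas2 was called too, but is not counted for the reason given above. Between injured and uninjured mice 0 of 5 genes were called, so the replicate block changed no call. Over all genes it called 895 against 1407 without the block in antibody-treated against uninjured mice. Calls over all genes moved more than those of the members: from 3396 to between 66 (junction reads) and 5200 (TPM) for injured against uninjured, from 1407 to between 302 (junction reads) and 3969 (without antibody-treated replicate 3) for antibody-treated against uninjured, and from 3193 to between 507 (junction reads) and 4203 (TPM) for antibody-treated against injured mice. Scaling also moved the split of higher to lower genes, for injured against uninjured mice from 1764 and 1632 to 3157 and 995 with library size alone and 4864 and 334 on log2(TPM + 0.1). For antibody-treated against injured mice it went from 1612 and 1581 to 649 and 3500 on that TPM scale, and against uninjured mice from 931 and 476 to 1267 and 201 with library size alone and 990 and 144 on that TPM scale. With GC and length trends removed the split turned towards lower genes, to 826 and 1390 for injured and 1160 and 2018 for antibody-treated against uninjured mice. Depth limits Alas2, which had 3 to 37 reads in a library.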
